A study of Mus musculus with 8 samples.

Results

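The mammalian circadian clock is a feedback loop of transcription factors that runs in nearly every cell of the body, immune cells included. The proteins CLOCK and BMAL1 (the product of Arntl) pair and switch on genes that carry an E-box in their promoter, among them the Period genes (Per1, Per2, Per3) and the cryptochromes (Cry1, Cry2), whose products return to block that pair. A second loop runs through the REV-ERB repressors, encoded by Nr1d1 and Nr1d2, which silence Arntl, and an output arm runs through Dbp, a factor that binds D-box elements. In immune cells of the lung and gut, this loop is known to time cytokine release and cell migration.

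The genes described here were these 10 clock genes, all of which are present among the 55413 genes of the bulk table and the 15083 genes of the single-cell table. The list was chosen by the bulk values of dopamine against PBS, because Nr1d2 was higher with dopamine there, so these values are given as a description, with no test. The single-cell values were not part of that rule and were tested. The genes were, however, chosen with earlier results of these data known. The cells were group 2 innate lymphoid cells (ILC2s), lymphocytes without antigen receptors that answer the epithelial alarmin IL-33, sorted from lungs of wild type C57BL/6 mice. In the bulk experiment, female mice received dopamine, a catecholamine transmitter, or its vehicle PBS into the nose, in both cases with IL-33, on 3 consecutive days. Each condition gave 3 Smart-Seq2 libraries (full-length cDNA) of 2000 cells each, which the labels call biological replicates.

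The second experiment was a 10x droplet pool of male mice in which antibody hashtags marked the source of each cell. In this experiment too, IL-33 was given over 3 days. By the authors' cell table, cells of mice given IL-33 plus dopamine carried hashtags 6 (1252 cells), 7 (1197) or 8 (1475). Cells of mice given IL-33 carried hashtags 3 (1485 cells), 4 (1092) or 5 (1516). Those of mice given PBS but no IL-33 carried hashtags 1 (311 cells) or 2 (748). Every hashtag came from a single pool, and the labels do not say that a hashtag is a separate mouse, so the p-values measure the spread between hashtags, which may be technical. The ages of the mice and the hour at which lungs were taken are not given in the sources used here.

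The deposited bulk values are TPM, read shares corrected for transcript length, so their sequencing depth is unknown. Genes with at least 1 TPM numbered 11502 to 11745 in the dopamine libraries and 9822 to 11384 in the PBS libraries. Hashtag totals were 6479893 to 6873266 UMIs (single tagged molecules) for IL-33 plus dopamine, 5828078 to 9268932 for IL-33 and 1397576 and 3358246 for PBS. Of the defining ILC2 markers, 8 of 8 (such as Gata3, Il1rl1 and Il7r) passed the bulk filter. Their summed level was 2220 to 3141 TPM in dopamine libraries and 2021 to 2785 TPM in PBS libraries. Single markers went both ways. Il7r averaged 361 TPM with dopamine and 107 TPM with PBS, but Klrg1 averaged 201 and 333 TPM and Areg 872 and 1047 TPM. Of the 8, 3 had every dopamine library above every PBS library (23.5% of all genes) and 0 had every one below (6.57%).

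Promoter sequence shows which of these genes carry the loop's own elements close to their start. The windows are RefSeq promoters of build GRCm38.p6 that span 300 bases around the transcription start, printed 5′ to 3′ along the gene's strand, and they were found for 9 of the 10 genes (not for Per2), as 13 windows. Capitals mark the motifs searched on both strands: the E-box CACGTG, bound by CLOCK and BMAL1, the D-box TTATGTAA or TTACGTAA, bound by DBP and its relatives, and the ROR element, bound by ROR activators and REV-ERB repressors. The first 4 windows are those that held a motif, and the window of Nr1d2 is shown because this gene led to the choice of the list.
Per3, chr4:151044616-151044915, minus strand: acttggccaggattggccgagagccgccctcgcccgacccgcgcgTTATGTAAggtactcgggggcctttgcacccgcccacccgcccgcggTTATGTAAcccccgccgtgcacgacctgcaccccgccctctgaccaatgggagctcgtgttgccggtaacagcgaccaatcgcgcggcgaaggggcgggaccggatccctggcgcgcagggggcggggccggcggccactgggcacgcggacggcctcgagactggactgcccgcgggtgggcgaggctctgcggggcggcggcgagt
Per1, first window, chr11:69098699-69098998, plus strand: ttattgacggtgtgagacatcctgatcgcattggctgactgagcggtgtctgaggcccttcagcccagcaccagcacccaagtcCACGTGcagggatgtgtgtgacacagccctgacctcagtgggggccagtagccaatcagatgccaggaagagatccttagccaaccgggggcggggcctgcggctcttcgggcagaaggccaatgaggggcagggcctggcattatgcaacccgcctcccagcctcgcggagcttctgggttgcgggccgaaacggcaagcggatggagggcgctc
Cry1, chr10:85185005-85185304, minus strand: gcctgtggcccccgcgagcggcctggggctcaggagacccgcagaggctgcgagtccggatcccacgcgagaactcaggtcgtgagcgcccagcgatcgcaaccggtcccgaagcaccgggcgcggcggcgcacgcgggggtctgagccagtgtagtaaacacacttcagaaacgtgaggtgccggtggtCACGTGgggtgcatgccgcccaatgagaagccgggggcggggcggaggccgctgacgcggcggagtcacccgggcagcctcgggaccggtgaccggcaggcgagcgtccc
Arntl, second window, chr7:113207261-113207560, plus strand: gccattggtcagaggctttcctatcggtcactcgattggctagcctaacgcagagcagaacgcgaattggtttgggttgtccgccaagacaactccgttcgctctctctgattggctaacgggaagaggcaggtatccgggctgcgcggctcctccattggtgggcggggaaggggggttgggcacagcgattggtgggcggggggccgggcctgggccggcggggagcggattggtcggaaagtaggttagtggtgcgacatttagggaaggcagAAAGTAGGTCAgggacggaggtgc
Nr1d2, chr14:18239057-18239356, minus strand: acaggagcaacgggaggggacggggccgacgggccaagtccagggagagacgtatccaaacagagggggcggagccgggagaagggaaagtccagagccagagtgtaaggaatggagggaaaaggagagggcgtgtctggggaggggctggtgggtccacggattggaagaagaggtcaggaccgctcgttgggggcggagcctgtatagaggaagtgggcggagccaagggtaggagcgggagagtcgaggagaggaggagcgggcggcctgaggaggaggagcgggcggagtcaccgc

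Per3 held 2 D-boxes, at positions -205 and -158 from the start, and no other window of these genes held one. Among all 32851 promoter windows, 347 held at least 1 D-box (1.06%) and 8 held at least 2 (0.0244%). The E-box stood at -166 in the first Per1 window and at -60 in the Cry1 window, against 2349 of all windows (7.15%). The ROR element stood at position 27 after the start in the second Arntl window, against 126 of all windows (0.384%), and in no other of the 13. This is its usual spelling, taken up after an earlier spelling with a base out of place, which matched none of the 13 windows (168 of all windows, 0.511%), had been searched. The cAMP element TGACGTCA (588 windows, 1.79%) and the glucocorticoid element (3 windows, 0.00913%) were not in these windows. A match is a description of letters, and a missing match says nothing of sites outside the window.

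In bulk, the REV-ERB repressors stood furthest apart between the treatments. Nr1d2 (chromosome 14, 18204054 to 18239127, minus strand, GENCODE M21 on GRCm38) had 28.2, 26.6 and 28.4 TPM in dopamine libraries 1 to 3, against 4.45, 2.05 and 2.13 TPM in PBS libraries 1 to 3. Each dopamine library was above each PBS library, and the dopamine libraries differed little among themselves. The group means were 27.8 ± 0.967 TPM with dopamine and 2.88 ± 1.36 TPM with PBS (SD, n = 3 each), a difference of 2.94 on the log2(TPM + 1) scale. Over all 11222 genes that passed the filter the median difference was 0.49 on this scale, because the deposited TPM put most genes higher with dopamine, and median-of-ratios scaling brought that median to 0.06. Relative to the median of all genes the Nr1d2 difference was 2.45, which placed the gene at the 99.7th percentile.

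Nr1d1 (chromosome 11, 98767932 to 98775333, minus strand), the better known REV-ERB gene, had 26.7, 75.1 and 53.5 TPM with dopamine, against 5.65, 1.60 and 17.8 TPM with PBS. The groups did not overlap here either, but the libraries of each treatment differed among themselves by more than those of Nr1d2. The difference was 2.82 (log2), or 2.33 relative to all genes. Its exons overlap those of the antisense gene Thra over 263 of 3077 bases (8.55%), and Smart-Seq2 does not mark strand, so reads in that stretch cannot be told apart. Thra itself was at 4.84, 2.72 and 4.08 TPM with dopamine and 0.580, 2.87 and 4.27 TPM with PBS.

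Arntl, the partner of CLOCK and the main target of the REV-ERB repressors, was at 34.4, 30.2 and 31.0 TPM with dopamine and 14.1, 2.47 and 6.28 TPM with PBS, without overlap. Its difference was 2.18 (log2), or 1.68 relative to all genes. Arntl and both of its repressors thus had higher TPM in the same 3 libraries. Clock, the partner of Arntl in the activator pair, was low throughout, at 2.79, 7.15 and 1.66 TPM with dopamine against 2.00, 1.2 and 0.570 TPM with PBS, and its groups overlapped.

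Among the Period genes, whose products repress CLOCK and BMAL1, Per1 had the most TPM of all 10 genes. It was at 71.0, 78.6 and 111 TPM with dopamine and 35.8, 29.0 and 63.4 TPM with PBS, a difference of 1.06 (log2) or 0.57 relative to all genes. Per3 was at 12.4, 5.07 and 10.7 TPM with dopamine and 1.93, 3.38 and 2.67 TPM with PBS (1.44, or 0.95 relative to all genes). Neither gene's groups overlapped. Per2 was near the bottom of the scale, at 0.180, 0.830 and 2.57 TPM with dopamine and 0.750, 0.10 and 1.19 TPM with PBS, and did not pass the filter of 1 TPM in 3 libraries.

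The cryptochromes, the second kind of repressor in the main loop, were also without overlap in the deposited TPM. Cry1 was at 19.1, 44.4 and 25.2 TPM with dopamine and 19.0, 1.63 and 8.57 TPM with PBS, so that the lowest dopamine library was close to the highest PBS library. Cry2 was at 5.96, 13.1 and 5.89 TPM with dopamine and 2.92, 3.30 and 3.48 TPM with PBS. Dbp, the output factor, was led by a single library: 2.78, 0 and 28.2 TPM with dopamine against 0, 1.3 and 3.29 TPM with PBS. Without dopamine library 3 the Dbp difference turned to -0.14 (log2), against 1.16 with it, and 18.01% of its exonic bases (539 of 2993) are shared with the antisense gene Sphk2.

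**Figure D1:**
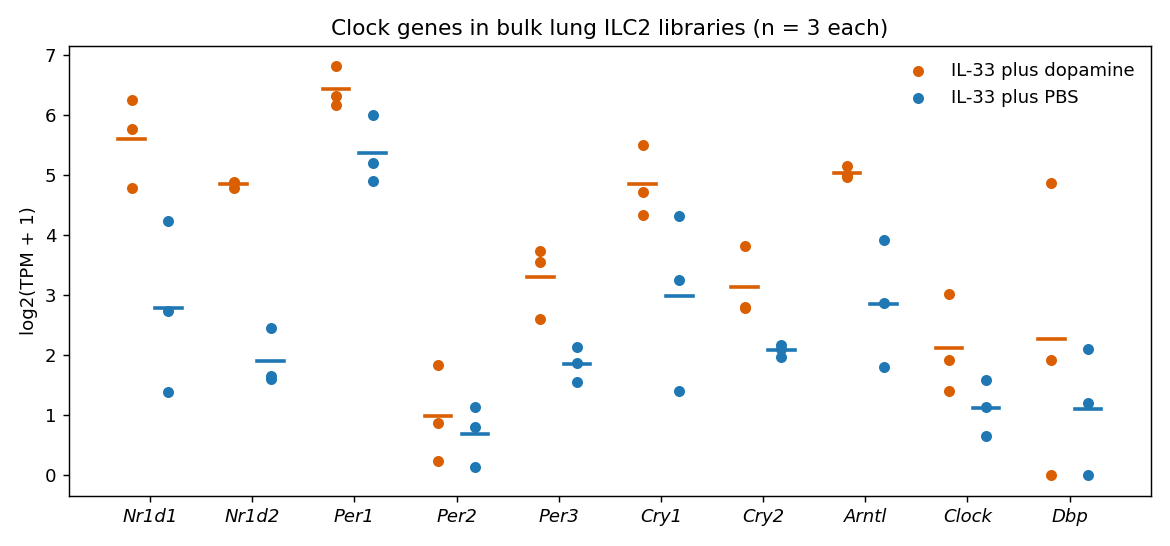
Level of each clock gene in the 6 bulk libraries, on the log2(TPM + 1) scale. Points are libraries, dopamine left of PBS, and the line is the mean of 3; Nr1d2 shows the tightest dopamine group, and Clock, Dbp and Per2 overlap between the treatments.

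Of the 9 clock genes that passed the filter, 7 had every dopamine library above every PBS library, and 2634 of all 11222 genes did so (23.5%). None of the 9 was lower in that way, as 6.57% of all genes were. A difference of at least 1 relative to the median was found for 4 of the 9 (Nr1d1, Nr1d2, Arntl and Cry1) and for 10.2% of all genes. Since this contrast chose the genes, nothing is read from these counts. Their median difference was 1.44 (log2), or 0.95 relative to the median of all genes. After median-of-ratios scaling Nr1d1, Nr1d2 and Arntl stayed without overlap, while 13.4% of all genes were so. The fit across all genes called 4 genes (0.0356%), all higher with dopamine. In bulk libraries, fewer cells of a type and less RNA per cell cannot be told apart.

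By mean TPM, the order was Per1, Nr1d1, Arntl, Cry1, Nr1d2, Dbp, Per3, Cry2, Clock and Per2 with dopamine, and Per1, Cry1, Nr1d1, Arntl, Cry2, Nr1d2, Per3, Dbp, Clock and Per2 with PBS. With dopamine, each gene's range overlapped that of the next in the order. With PBS, Per1 and Cry1 were the one neighbouring pair whose ranges did not overlap.

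Summed markers of natural killer cells and ILC1, of ILC3 and of T cells were higher in the same dopamine libraries, in deposited TPM. The 6 natural killer and ILC1 markers summed to 120 to 226 TPM with dopamine and 6.04 to 53.8 TPM with PBS, and 4 of the 5 that were tested were higher without overlap, against 23.5% of all genes. Klrd1 and Prf1 were listed at 0 in PBS libraries 1 and 2. The 4 ILC3 markers summed to 85.0 to 173 TPM with dopamine and 10.9 to 62.2 TPM with PBS. Of these, 3 of 4 were higher without overlap, against 23.5% of all genes. T cell markers summed to 1867 to 2402 TPM with dopamine and 1213 to 1808 TPM with PBS, with 3 of 10 tested genes higher without overlap (23.5% of all genes). Relative to all genes, the median difference was 2.29 (log2) for natural killer and ILC1 markers, 1.76 for ILC3 markers and 0.27 for T cell markers. The T cell markers with the most TPM, Trbc2, Trbc1 and Cd3g, were at -0.24, -0.26 and 0.07 on that scale. Cd8a was listed at 0 in every library but dopamine library 2, and Cd4 in every library but that one and PBS library 1. B cell markers (45.1 to 72.6 against 26.8 to 52.9 TPM) and macrophage markers (1.29 to 413 against 11.1 to 153 TPM) overlapped between the treatments. Their part in the clock gene values was not tested.

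The droplet data asked the same question of dopamine under IL-33 in male mice, with hashtag sums as replicates. None of the 10 clock genes passed edgeR's quasi-likelihood test, and 3 of 10559 genes did (0.0284%), all lower with dopamine. Per3 came closest. An unadjusted p under 0.05 was found for 1000 genes, Per3, Nr1d1 and Per2 among them. The median log2 fold change of the 10 genes was 0.11, against 0.00036 over all genes tested.

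Per3 (chromosome 4, 151003652 to 151044665, minus strand) had 21.0, 21.0 and 19.4 CPM (UMIs of the gene, scaled to a common hashtag total) in IL-33 plus dopamine hashtags 6 to 8, against 12.0, 12.5 and 12.6 CPM in IL-33 hashtags 3 to 5. These rested on 140, 144 and 126 UMIs with dopamine and 111, 73 and 108 UMIs with IL-33. The groups lay far apart compared with their spread, at 20.5 ± 0.889 CPM with dopamine and 12.4 ± 0.327 CPM with IL-33 (SD, n = 3 each). The log2 fold change was 0.73 (SE 0.11, 95% interval 0.49 to 0.97), the 4th smallest p of 10559 genes, with an adjusted p of 0.0683 in edgeR. DESeq2 put the same gene at an adjusted p of 0.0221, so the call depends on the tool, and the range over 11 alternatives was 0.0221 to 0.304.

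Nr1d1 had 7.36, 7.71 and 7.41 CPM with dopamine, against 10.1, 13.4 and 12.6 CPM with IL-33, so here every dopamine hashtag was below every IL-33 hashtag. The values rested on 48 to 53 UMIs per dopamine hashtag and 78 to 108 per IL-33 hashtag. The log2 fold change was -0.67 (SE 0.16, 95% interval -1.01 to -0.32), with an adjusted p of 0.252 in edgeR (0.131 to 0.507 over 11 alternatives), which did not pass. In the bulk libraries of female mice the same gene was higher with dopamine by 2.82 (log2).

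Nr1d2 had 67.6, 54.1 and 66.7 CPM with dopamine, against 55.9, 60.9 and 52.5 CPM with IL-33, and the groups overlapped. The means were 62.8 ± 7.51 CPM with dopamine and 56.4 ± 4.21 CPM with IL-33 (SD, n = 3 each), a log2 fold change of 0.16 (SE 0.11, 95% interval -0.07 to 0.39, adjusted p of 0.636 in edgeR). The 2 values come from different sexes, protocols and scales, and the difference between them was not tested.

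The other Period genes did not pass. Per1 had 81.1, 82.9 and 111 CPM with dopamine, against 96.2, 81.3 and 87.1 CPM with IL-33, a log2 fold change of 0.06 (95% interval -0.23 to 0.34, adjusted p of 0.918 in edgeR). Hashtag 8 alone stood above the rest, and without it the value was -0.13. Per2 had 4.35, 3.64 and 3.09 CPM with dopamine and 2.59, 1.72 and 2.67 CPM with IL-33, without overlap but on 10 to 29 UMIs per hashtag (log2 fold change 0.63, SE 0.26, adjusted p of 0.505 in edgeR).

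The cryptochromes and the activator pair showed small differences whose intervals included 0. Cry1 averaged 18.7 ± 2.22 CPM with dopamine and 16.8 ± 1.21 CPM with IL-33 (log2 fold change 0.16, 95% interval -0.11 to 0.43). Cry2 averaged 7.88 ± 0.693 CPM with dopamine and 7.49 ± 1.24 CPM with IL-33 (0.05, -0.32 to 0.43). Arntl averaged 24.1 ± 1.66 CPM with dopamine and 24.7 ± 3.14 CPM with IL-33 (-0.03, -0.28 to 0.23), and Clock 39.1 ± 2.58 CPM with dopamine and 38.9 ± 3.56 CPM with IL-33 (0.01, -0.22 to 0.24).

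Dbp, the D-box activator, had 33.9, 23.7 and 29.0 CPM with dopamine, against 20.4, 19.2 and 29.2 CPM with IL-33. A single IL-33 hashtag, number 5, reached the dopamine values. The log2 fold change was 0.32 (SE 0.17, 95% interval -0.05 to 0.69, adjusted p of 0.56 in edgeR). By groups that did not overlap, the count over the 10 genes was 2 higher with dopamine (Per2 and Per3) and 1 lower (Nr1d1), where 7.81% of all genes were higher and 6.93% lower in that way.

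**Figure D2:**
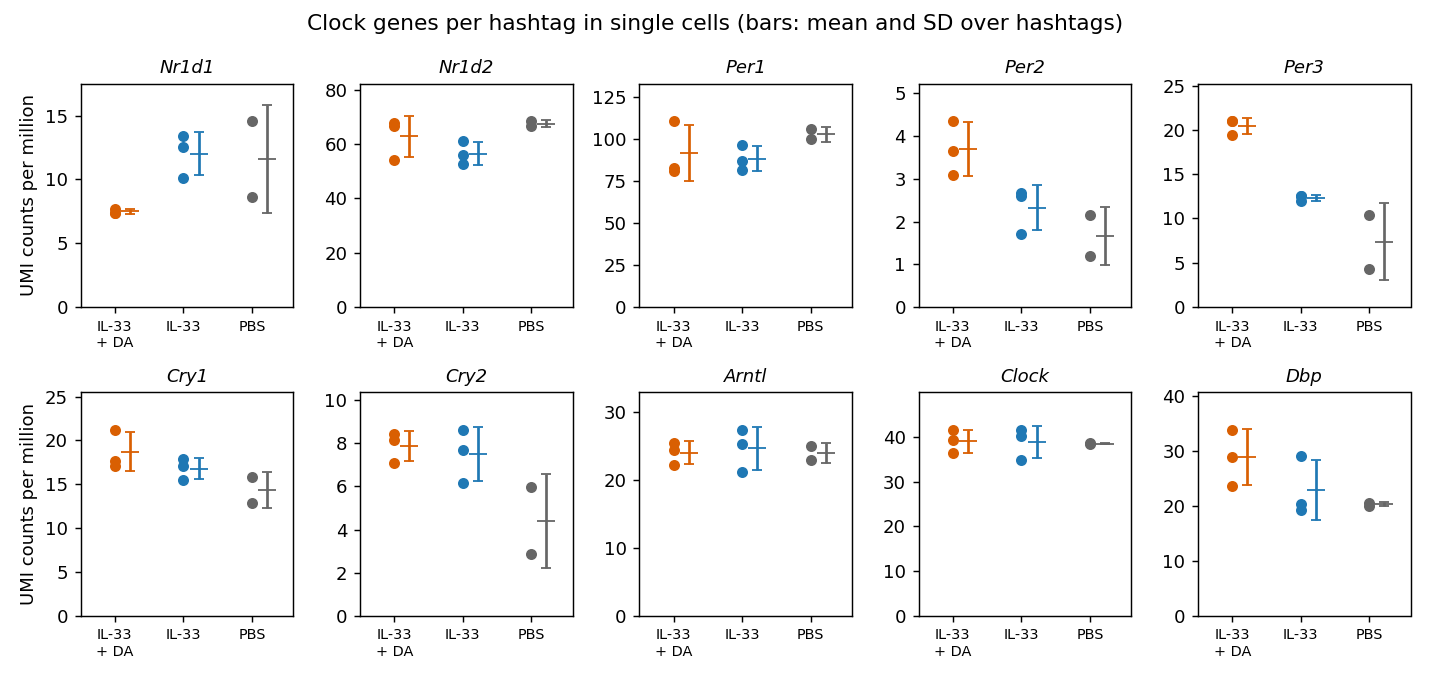
Level of each clock gene in each hashtag, in CPM, in the order IL-33 plus dopamine, IL-33 and PBS, on axes that start at 0. Points are hashtags and the bars are the mean and SD over 3, 3 and 2 hashtags; Per3 sits at 19.4 to 21.0 CPM with dopamine and 12.0 to 12.6 CPM with IL-33, and Nr1d1 is lowest with dopamine.

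**Figure D3:**
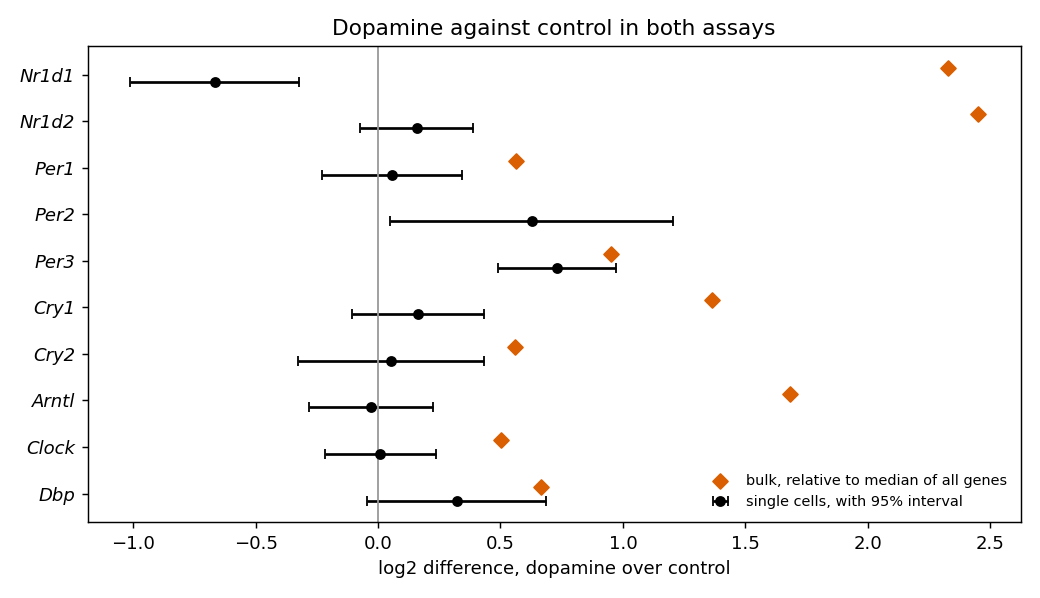
Difference between dopamine and its control for each clock gene, on a log2 scale. Diamonds are bulk values relative to the median of all genes, with no interval because those values chose the genes. Circles are single-cell log2 fold changes with their 95% interval. Per3 is above 0 in both, as are Nr1d2, Per1, Cry1, Cry2, Clock and Dbp, whose single-cell intervals include 0. Nr1d1 lies on opposite sides of 0, as does Arntl, at -0.03 in single cells with an interval that includes 0.

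The IL-33 hashtags were then set against the hashtags that had no IL-33. None of the 10 clock genes passed in IL-33 against PBS, where 74 of 10506 genes did (0.704%, of which 37 were higher and 37 lower, 0.352% each). Nr1d2 had 55.9, 60.9 and 52.5 CPM with IL-33 against 66.5 and 68.5 CPM with PBS, a log2 fold change of -0.30 (SE 0.11, 95% interval -0.55 to -0.06, adjusted p of 0.259 in edgeR). Per1 had 96.2, 81.3 and 87.1 CPM with IL-33 against 106 and 99.8 CPM with PBS, a log2 fold change of -0.24 (SE 0.11, adjusted p of 0.343 in edgeR). Both genes were lower without overlap, as were 13.6% of all genes.

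Per3 had 12.0, 12.5 and 12.6 CPM with IL-33 against 4.29 and 10.4 CPM with PBS, where hashtag 1 held only 6 UMIs of the gene. The log2 fold change of 0.51 (SE 0.26, adjusted p of 0.425 in edgeR) ran between 0.21 and 1.48 as single hashtags were left out. Cry2 was also higher without overlap, at 8.63, 6.18 and 7.67 CPM with IL-33 against 2.86 and 5.96 CPM with PBS (0.58, adjusted p of 0.478 in edgeR), as were 20.9% of all genes. Per2 (0.64), Dbp (0.15), Cry1 (0.14), Nr1d1 (-0.12), Clock (-0.02) and Arntl (0.02) had intervals that included 0.

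Set against PBS, the IL-33 plus dopamine hashtags gave no call for any of 10612 genes in edgeR (0%), with 545 genes at an unadjusted p under 0.05 and no call in DESeq2. This comparison shares its PBS hashtags with the one before. Per2 (1.26, on 3 and 4 UMIs in the PBS hashtags) and Per3 had the largest log2 fold changes of the 10 genes. Per3 was at 20.5 ± 0.889 CPM with dopamine (n = 3) and 7.36 ± 4.33 CPM with PBS (n = 2), a log2 fold change of 1.24 (SE 0.25, adjusted p of 0.685 in edgeR). Nr1d1 had a log2 fold change of -0.77 (adjusted p of 0.927 in edgeR), at 7.49 ± 0.192 CPM with dopamine and 11.6 ± 4.25 CPM with PBS. Per2, Per3, Cry1, Cry2 and Dbp were higher without overlap and Nr1d1 was lower, where 14.9% of all genes were higher and 9.09% lower.

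The authors split the cells into 6 clusters, numbered 0 to 5 in the cell table. Because those clusters were made from the genes of these cells, the levels by cluster are a description. Per1 was highest in cluster 2, at 134 ± 13.6 CPM (SD over 8 hashtags, range 116 to 155), and lowest in cluster 1, at 67.2 ± 16.2 CPM (range 50.04 to 94.2). Nr1d1 was highest in cluster 4, at 22.4 ± 8.30 CPM, and lowest in cluster 3, at 4.22 ± 2.54 CPM, where its 31 UMIs over all hashtags make it the least measured. Cluster 4 also held the highest Dbp (39.7 ± 13.4 CPM), and cluster 3 the lowest Dbp and Clock (11.4 ± 4.22 and 21.3 ± 6.34 CPM).

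Per3 was at 19.4 ± 8.29, 18.3 ± 11.4 and 18.6 ± 10.5 CPM in clusters 0, 1 and 4, and at 6.37 ± 3.97 and 7.91 ± 4.63 CPM in clusters 3 and 5. Arntl varied least between clusters, from 20.7 ± 4.81 CPM in cluster 0 to 27.1 ± 5.45 CPM in cluster 3. Nr1d2 was at 66.6 to 68.8 CPM in clusters 0, 1, 2 and 4, and lower in clusters 3 (50.4 ± 5.0 CPM) and 5 (45.3 ± 12.2 CPM, 7 hashtags). Cluster 3 was thus low for most of the clock genes but not for Arntl and Per1 (92.0 ± 11.8 CPM).

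**Figure D4:**
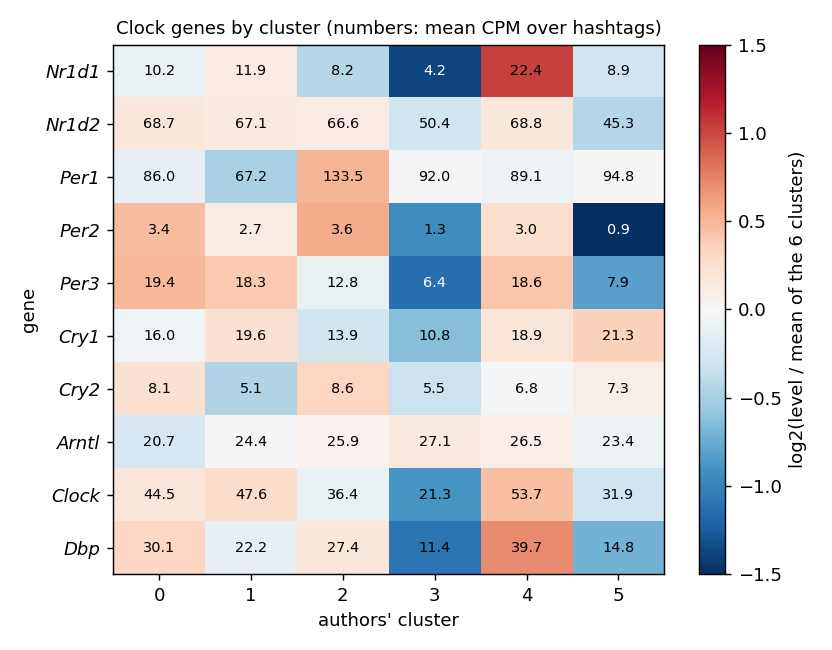
Mean level of each clock gene (rows) in each of the authors' clusters (columns), in CPM averaged over hashtags. The colour is the log2 ratio to the mean of the 6 clusters; Per1 is highest in cluster 2 (134 CPM), Nr1d1 and Dbp are highest in cluster 4 (22.4 and 39.7 CPM), and cluster 3 is low for both.

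The clusters' shares of cells differed between treatments. Cluster 1 made up 11.7% to 21.6% of cells in IL-33 plus dopamine hashtags, 26.2% to 27.8% in IL-33 hashtags and 8.36% and 23.3% in PBS hashtags, and cluster 5 ran from 1.76% (hashtag 8) to 22.02% (hashtag 3). With each hashtag weighted to the same cluster shares, the log2 fold change of dopamine over IL-33 was 0.78 for Per3 and -0.62 for Nr1d1, close to the values over all cells.

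Within clusters, no clock gene passed for dopamine against IL-33, where the share of all genes called was 0.0388%, 0.075%, 0%, 0%, 0.0548% and 0.266% in clusters 0 to 5. Per3 had log2 fold changes of 0.64 (SE 0.21), 0.88 (SE 0.23), 0.77 (SE 0.33) and 0.69 (SE 0.32) in clusters 0, 1, 2 and 4, with adjusted p-values of 0.518, 0.362, 0.779 and 0.756 in edgeR. It was above 0 in each of the 4 clusters with enough UMIs for a test. Nr1d1 was at -0.88 (SE 0.32), -0.91 (SE 0.33) and -0.42 (SE 0.32) in clusters 0, 1 and 4, and at 0.23 (SE 0.46) in cluster 5. Nr1d2 stayed between 0.01 and 0.17 in all 6 clusters, and Arntl ran from -0.58 (cluster 2) to 0.43 (cluster 5).

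The test of whether the dopamine effect differed between clusters called 6 of 8744 genes (0.0686%) and none of the 9 clock genes tested. Arntl had the smallest p, 0.0157 unadjusted and 0.69 adjusted in edgeR. Per3 (adjusted p of 0.997), Nr1d1 (0.969) and Nr1d2 (0.998) were far from the threshold. In IL-33 against PBS, no clock gene passed in clusters 0 to 4 (0.095%, 0.286%, 0.0753%, 0.0698% and 0.138% of all genes called), and cluster 5 could not be fitted.

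**Figure D5:**
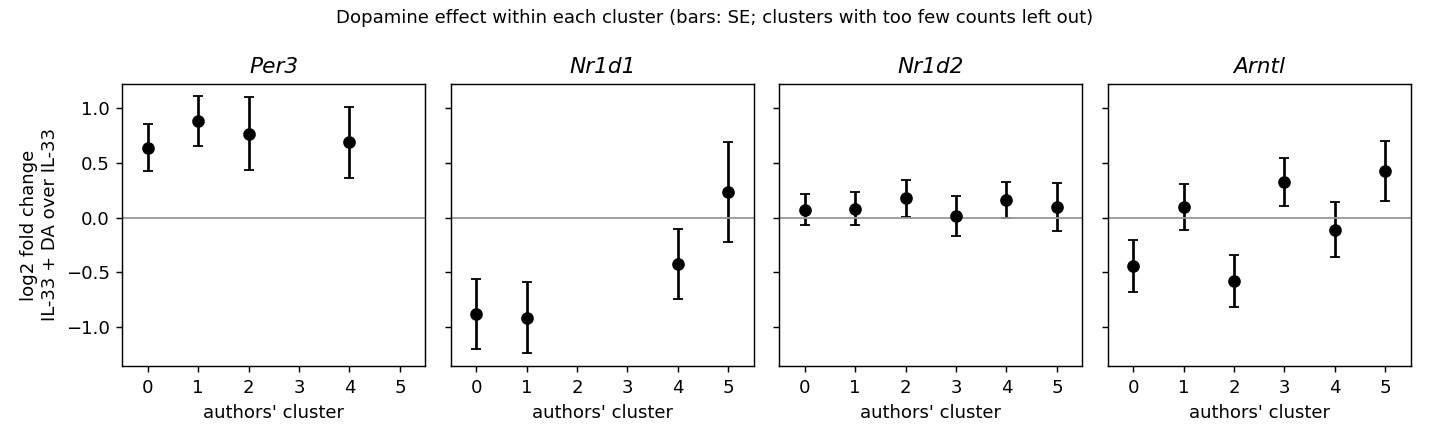
Log2 fold change of IL-33 plus dopamine over IL-33 within each of the authors' clusters, from edgeR on hashtag sums, with bars for the SE. Per3 lies between 0.64 and 0.88 in the 4 clusters tested, Nr1d1 is below 0 in 3 of 4 and Nr1d2 is near 0 in all 6.

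Genes around the core loop were followed as a list of 22 further clock genes, such as the activator Rora, the D-box factors Tef, Hlf and Nfil3, and the F-box proteins that control cryptochrome stability. In bulk, 18 passed the filter, none was called by limma (background 0.0356%) and 7 were higher with dopamine without overlap (23.5% of all genes), among them Rora, Nfil3, Tef, Ciart, Csnk1e and Usp2. Their median difference was 0.96 (log2), or 0.46 relative to all genes. Rorb and Arntl2 were listed at 0 in every library.

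In single cells, 19 of the 22 were tested, and dopamine against IL-33 called none, with a median log2 fold change of 0.10. The 3 with the highest CPM were Rora, Bhlhe40 and Hlf. Rora, an activator of Arntl that ILC2s need for their development, was at 1477, 1902 and 2127 CPM in the IL-33 plus dopamine hashtags, 1598, 1556 and 1614 CPM in the IL-33 hashtags and 2112 and 1777 CPM in the PBS hashtags. Its log2 fold change was 0.21 for dopamine over IL-33 (adjusted p of 0.566 in edgeR) and -0.33 for IL-33 over PBS (adjusted p of 0.0514 in edgeR and 0.0338 in DESeq2, range 0.00199 to 0.428). Bhlhe40, a repressor of CLOCK and BMAL1 targets, was at 873, 1135 and 948 CPM with dopamine, against 1089, 958 and 1013 CPM with IL-33. Hlf, a relative of Dbp, was at 281, 395 and 311 CPM with dopamine, against 333, 322 and 289 CPM with IL-33.

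Fbxl21, an F-box gene whose protein acts on cryptochromes, was the sole gene of the 22 called in IL-33 against PBS (background 0.704%). It fell to 19.0, 19.2 and 19.3 CPM with IL-33, against 32.9 and 33.6 CPM with PBS, a log2 fold change of -0.84 (SE 0.14, adjusted p of 0.0127 in edgeR). The adjusted p was 0.106 without hashtag 1, 0.171 without hashtag 2, 0.0694 in cells of middle depth and 0.229 when all 8 hashtags shared a fit, so the call rests on the choice of fit and on both PBS hashtags. With equal cluster shares the log2 fold change was -0.54. Tef, named after its values were seen because it binds the same D-box as Dbp, had 25.2, 19.2 and 17.6 CPM with dopamine against 10.5, 16.1 and 17.0 CPM with IL-33 (log2 fold change 0.52, SE 0.18, adjusted p of 0.426 in edgeR). In bulk it was at 6.60, 8.47 and 11.8 TPM with dopamine and 1.59, 0.730 and 1.77 TPM with PBS. Hlf went the other way in bulk, at 27.4, 20.3 and 17.1 TPM with dopamine and 51.9, 19.5 and 33.9 TPM with PBS. Its difference was -0.60 (log2), and its groups overlapped. Nfil3, which represses through the D-box, had 63.7, 81.0 and 73.3 CPM with dopamine against 68.9, 70.5 and 66.0 CPM with IL-33.

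Per1 is a known target of glucocorticoids and of cAMP signalling through CREB, so genes induced by each were set beside it. Of 8 glucocorticoid-induced genes, none was called in bulk (0.0356% of all genes) and 5 were higher with dopamine without overlap (23.5% of all genes), with a median of 1.16 (log2) or 0.67 relative to all genes. In single cells none was called for dopamine against IL-33, and their median was -0.03. Of 10 CREB-induced genes, none was called in bulk and 9 were higher with dopamine without overlap, against 23.5% of all genes (median 1.28, or 0.78 relative to all genes). In single cells none was called for dopamine against IL-33 (median 0.31), and 3 were higher without overlap (7.81% of all genes). For IL-33 plus dopamine against PBS none was called, and none was higher or lower without overlap (14.9% and 9.09% of all genes). Their median there was -0.02. For IL-33 against PBS the median was -0.34, and 6 were lower without overlap (13.6% of all genes). In that comparison 2 were called, both lower (0.352% of all genes).

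Those 2 were Fosb, a component of AP-1 (-0.42, adjusted p of 0.0168 in edgeR), and Sik1, a kinase that restrains CREB coactivators (-0.48, adjusted p of 0.0363 in edgeR). Fosb averaged 1560 ± 113 CPM with IL-33 (n = 3) and 2029 ± 197 CPM with PBS (n = 2). Sik1 averaged 177 ± 13.7 CPM with IL-33 and 242 ± 21.9 CPM with PBS. Neither call held with all 8 hashtags in a shared fit (adjusted p of 0.38 for Fosb and 0.229 for Sik1), nor without hashtag 1 (0.305 and 0.351) or hashtag 3 (0.0528 for both), and that of Sik1 was also lost without hashtag 2 (0.0603) or 4 (0.0519). With equal cluster shares the log2 fold changes were -0.25 for Fosb and -0.31 for Sik1.

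In single cells, summed levels of genes that mark other cell types were also set side by side. The natural killer and ILC1 markers averaged a sum of 190 CPM with dopamine and 177 CPM with IL-33, the ILC3 markers 9.63 CPM with dopamine and 13.1 CPM with IL-33, the macrophage markers 2.37 CPM with dopamine and 2.19 CPM with IL-33, and the B cell markers 4.50 CPM with dopamine and 5.48 CPM with IL-33. T cell markers summed to 1113 CPM with dopamine and 1110 CPM with IL-33. Of the 8 tested, 2 were higher and 3 lower without overlap (7.81% and 6.93% of all genes), and the median log2 fold change was -0.08. The lower ones were the CD3 chain genes Cd3d (-0.45), Cd3e (-1.01) and Cd3g (-1.07). Of these, Cd3g was called (adjusted p of 0.0014 in edgeR). The levels are sums over all cells of a hashtag, so they do not show which cells held the CD3 chain transcripts. In the bulk libraries of female mice the same genes were higher with dopamine, by 3.16, 2.94 and 0.57 (log2). There Cd3e and Cd3g were without overlap and Cd3d overlapped. The difference between the experiments was not tested.

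The genes whose level over the 8 hashtags ran most like that of Nr1d2, among 4894 genes with a mean of at least 20 CPM, were Tra2a (Pearson r of 0.938), Numa1 (0.936), Atp6ap1 (0.932), Luc7l (0.925) and Esco1 (0.921). For Per1 they were Prdm1 (0.931), Isca1 (0.914), Crybg1 (0.906), B3galt2 (0.904) and Cebpb (0.904). These are descriptions over 8 hashtags of 1 pool, whose points share library and depth, and they carry no test.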

How the data were processed

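Lung ILC2s were profiled in 6 bulk Smart-Seq2 libraries and in 1 10x pool of 8 hashtags. The submitters' processing notes name cutadapt 2.10, STAR 2.7.5c, RSEM 1.3.3, Cell Ranger 6.1.1, Seurat 4.0.2 and build mm10, without settings. The bulk values are TPM as deposited by the authors. The single-cell values are deposited UMI counts of 9076 cells that the authors kept, with their hashtags and clusters. The authors' deposited percent of mitochondrial UMIs in each cell was not used. Doublets were not called again, and how the authors handled them is not given.

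Bulk values were compared as log2(TPM + 1), and limma 3.58.1 (trend, genes reaching 1 TPM in 3 or more libraries) gave the share of all genes called. UMI counts were summed per hashtag and tested two-sided with edgeR 4.0.16 (TMM, filterByExpr, quasi-likelihood), with Benjamini-Hochberg adjustment over all genes tested and a threshold of 0.05. Clusters were tested on sums of hashtags with at least 20 cells, and the difference between clusters with the hashtag as a block. DESeq2 1.42.0 was an alternative, and all ran in R 4.3.3. Intervals of fold changes cover the spread between hashtags only.

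Clock genes, gene lists and naming rule were all chosen with earlier results of these data known. The text names the 10 clock genes and the called genes of the further lists other than the ILC2 markers. It also names the 3 further clock genes with the most CPM and the 5 genes most like Nr1d2 and Per1. Other genes of the lists stand in the text as examples, picked after their values were seen. An item of the lists is not reported here. Gene positions are those of GENCODE M21 (GRCm38, the build of mm10), and promoters those of RefSeq on GRCm38.p6. Equally numbered bulk libraries correlated at 0.0186, -0.0710 and -0.00177 after removal of group means and the labels do not pair them, so no pairing entered the tests.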

Additional observations from a re-analysis of the deposited data

Results flagged for a closer look

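Nr1d1 was the one clock gene whose groups were without overlap in both experiments but in opposite directions. In bulk libraries of female mice all dopamine values were above all PBS values (log2 difference 2.82), as in 23.5% of all genes. That contrast chose the list. In single cells of male mice all 3 dopamine hashtags were below all 3 IL-33 hashtags, as in 6.93% of all genes. The log2 fold change there was -0.67 and did not pass (adjusted p of 0.252 in edgeR). The difference between the experiments was not tested. Sex, protocol (full-length bulk against droplets) and unit all changed together between them, so they cannot be told apart.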

How the results depend on the processing

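The bulk count of 4 called genes became 2 with a pseudocount of 5, 0 with no filter, 21 after quantile normalization and 15 with the replicate block, and ran from 0 (without PBS library 2) to 1536 (without PBS library 1) as libraries were left out, with 90 without PBS library 3 and 1 without dopamine library 2. The correlations of equally numbered libraries were near 0, and 1 of 6 libraries was closest to its own number. The median bulk difference of the clock genes stayed between 0.81 and 1.79. Leaving out libraries moved Dbp from -0.14 to 2.29, and from -0.61 to 1.81 relative to all genes.

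For dopamine against IL-33, the 3 called genes became 27 with DESeq2, which also called 1 clock gene (Per3), and 9 in cells between the 10th and 90th percentile of UMIs. They ran from 1 (without hashtag 3 or 4) to 16 (without 7), with 7 without hashtag 6. Leaving out hashtags moved Per1 from -0.13 to 0.16, Cry2 from -0.049 to 0.17, Arntl from -0.13 to 0.044, Clock from -0.063 to 0.069 and Fbxl21 from -0.0075 to 0.42. In mid-depth cells Clock was at -0.055, and with equal cluster shares Fbxl21 was at -0.038.

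For IL-33 against PBS, the 74 called genes became 119 with DESeq2, 322 with no filter, 0 with all 8 hashtags in a shared fit and 34 in mid-depth cells, and ran from 5 (without hashtag 1) to 124 (without 4), with 40 without hashtag 3. Where 1 PBS hashtag was left, it was assumed to vary like the other group. Clock turned to 0.0035 with no filter, 0.11 in mid-depth cells and 0.041 with equal cluster shares. In mid-depth cells Nr1d1 was at 0.078, Cry1 at -0.058, Arntl at -0.016 and Tef at 0.063. Leaving out hashtags moved Nr1d1 from -0.32 to 0.43, Arntl from -0.066 to 0.12, Clock from -0.076 to 0.054, Dbp from -0.071 to 0.24 and Tef from -0.23 to 0.14.

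For IL-33 plus dopamine against PBS, 0 called genes became at most 2 (without hashtag 8). With no filter Arntl was at 0.0066 and Clock at 0.0065, and Clock was at 0.057 in mid-depth cells and 0.10 with equal cluster shares. Leaving out hashtags moved Arntl from -0.094 to 0.039, Clock from -0.082 to 0.039 and Rora from -0.26 to 0.037. Of all single-gene values under the alternatives, 203 in bulk moved by less than the spread between replicates and 414 in single cells kept direction and side of the threshold. Of the others, 10 in bulk and 9 in single cells moved by more than that spread, 3 and 34 changed sign, and 12 single-cell values lost and 5 gained a call. The causes were not tested. Low UMI counts limit Per2, Nr1d1 and Cry2, and the bulk depth is unknown.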
